A study of Mus musculus with 16 samples.

Results

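The tubulin isotypes described here were 10 genes, 6 for beta-tubulin (*Tubb6*, *Tubb2a*, *Tubb2b*, *Tubb3*, *Tubb5* and *Tubb4b*) and 4 for alpha-tubulin (*Tuba1a*, *Tuba1b*, *Tuba4a* and *Tuba8*). They were chosen by gene symbol from the 41388 genes of a count table made from mouse quadriceps muscle, and all 10 were found once. The study asked whether tamoxifen changes mice that model myotubular myopathy, a congenital X-linked muscle disease caused by loss of the phosphoinositide phosphatase *Mtm1*. RNA was sequenced from C57BL/6 mice, at postnatal day 36 by their labels (a supplement of the study gives a slightly younger age), in 4 labelled groups of 4 libraries: wild type (WT), wild type given tamoxifen (WT_TAM), mtm1 -/- (KO) and mtm1 -/- given tamoxifen (KO_TAM). The KO mice carry a germline removal of *Mtm1* exon 4, so every cell type of the muscle lacks it, and all 4 groups are young mice of 1 age and 1 muscle. Tamoxifen, an oestrogen receptor modulator, was mixed into chow at 40 mg/kg/day from day 21, and the other groups received no tamoxifen.

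Tubulin is a dimer of 1 alpha and 1 beta chain, and dimers join end to end into microtubules. Mammals encode several alpha and beta isotypes whose bodies are nearly the same and whose acidic tails differ, and these tails carry the sites where enzymes add or remove residues and where motors and associated proteins bind. In muscle fibers microtubules form a grid under the membrane and around nuclei, they position nuclei and organelles, and the set of isotypes in use is known to shift between dividing myoblasts, regenerating fibers and mature fibers.

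Since the isotypes are told apart mainly by their tails, the coding ends of 8 isotypes are shown as annotated by GENCODE vM21 on GRCm38, with the last 16 codons and the stop codon, 5′ to 3′ on the coding strand. Capitals mark the glutamate codons (GAA or GAG), the residues to which glutamate chains can be added. The beta-tubulins come first, with the neighbouring pair that differed between genotypes at the top and *Tubb3*, the beta isotype best known from neurons, at the end.
Tubb2a (chr13:34074468-34074518, minus strand): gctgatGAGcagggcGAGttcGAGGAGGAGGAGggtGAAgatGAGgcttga
Tubb2b (chr13:34127471-34127521, minus strand): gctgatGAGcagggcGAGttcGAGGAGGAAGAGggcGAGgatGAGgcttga
Tubb5 (chr17:35834982-35835032, minus strand): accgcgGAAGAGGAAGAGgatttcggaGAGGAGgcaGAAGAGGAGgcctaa
Tubb4b (chr2:25222308-25222358, minus strand): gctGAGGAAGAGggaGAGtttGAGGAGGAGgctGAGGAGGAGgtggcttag
Tubb3 (chr8:123421632-123421682, plus strand): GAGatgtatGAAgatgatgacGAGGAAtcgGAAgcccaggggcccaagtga
*Tubb2a* and *Tubb2b* differed at 3 of these 51 bases. *Tubb4b* had 10 glutamate codons in this stretch, *Tubb5* had 9, *Tubb2a* and *Tubb2b* had 8 each and *Tubb3* had 5.

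The ends of 3 alpha-tubulins are shown for the residue at the very end, which a carboxypeptidase removes and a ligase restores when it is a tyrosine.
Tuba1b (chr15:98931582-98931632, minus strand): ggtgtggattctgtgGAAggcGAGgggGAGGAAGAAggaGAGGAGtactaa
Tuba4a (chr1:75215622-75215672, minus strand): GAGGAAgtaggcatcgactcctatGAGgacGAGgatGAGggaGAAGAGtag
Tuba8 (chr6:121226029-121226079, plus strand): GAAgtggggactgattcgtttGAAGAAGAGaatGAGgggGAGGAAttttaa
*Tuba1b* ended in the tyrosine codon TAC. *Tuba4a* ended in the glutamate codon GAG, so that it is made without the tyrosine, and *Tuba8* ended in the phenylalanine codon TTT. Each of these 3 had 7 glutamate codons. The means of the *Tuba1a*/*Tuba1b* pair and of the *Tuba4a*/*Tuba8* pair lay in opposite directions between genotypes, with the tests given after the beta-tubulins.

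Library depth was 25116179 to 29847222 counts over all genes. *Mtm1* itself was counted 341 to 369 times in 3 WT libraries and 282 to 459 times in the WT_TAM libraries, against 63 to 76 times in 3 KO and 53 to 97 times in the KO_TAM libraries. The library labelled WT replicate 1 went against its label, with 74 *Mtm1* counts. The study used 14 libraries, with 3 each of WT and KO, and its main text does not name those left out. Here this library and KO replicate 12 (85 *Mtm1* counts) were taken as the 2 left out. The tests below use the other 14 libraries, with the values of these 2 given beside the results. Mature fiber markers were abundant in every library, as the labelled tissue would have them, with a summed level of 72523 to 177215 CPM (counts scaled to a total of 1e6) for 7 genes. Levels are given as CPM scaled by the trimmed mean of M values (TMM), and RPKM values (reads per kilobase of transcript and per 1e6 reads) are used where genes are compared with each other. In whole muscle, fewer cells of a type and less RNA per cell cannot be told apart.

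In WT muscle the listed tubulin RNA was mostly *Tuba4a*, *Tuba8* and *Tubb4b*. *Tuba4a* had the highest level per length, 188 ± 34 RPKM (SD, n = 3), followed by *Tuba8* at 125 ± 21 and *Tubb4b* at 97.0 ± 14.1 RPKM. The *Tuba4a* libraries lay above all *Tuba8* libraries, whereas the *Tuba8* and *Tubb4b* ranges overlapped. *Tuba1a* (41.8 ± 7.4 RPKM), *Tuba1b* (27.1 ± 5.1), *Tubb5* (19.9 ± 1.6) and *Tubb6* (13.1 ± 0.7) came next, each below the isotype above it in every library. *Tubb2a* (10.6 ± 2.2 RPKM) overlapped *Tubb6*, and *Tubb2b* (2.40 ± 0.49) and *Tubb3* (0.294 ± 0.089) were lowest. In WT_TAM muscle the order of the 10 means was the same. In KO muscle *Tubb6*, at 95.8 ± 16.6 RPKM (SD, n = 3), came after *Tuba4a* (168 ± 28) and *Tubb4b* (130 ± 12), and its range overlapped that of *Tuba8* (91.2 ± 13.5). The order of the 10 means in KO_TAM muscle was that of KO muscle, with overlapping ranges between neighbours from *Tuba4a* down to *Tubb5*. The order depends on the length used. Divided by the 50-base stretches that no other gene holds, *Tuba1a* had the largest share of the 10 isotypes in KO muscle (21.9% ± 1.4), before *Tuba4a* (19.4% ± 0.8), *Tuba1b* (19.3% ± 1.5), *Tubb4b* (17.4% ± 0.9), *Tuba8* (8.36% ± 0.57) and *Tubb6* (5.57% ± 1.36). In WT muscle it left *Tuba4a* first (30.5% ± 4.1), followed by *Tubb4b* (18.0% ± 1.5) and *Tuba1a* (17.7% ± 3.9), with *Tubb6* at 1.06% ± 0.09.

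KO was compared with WT to ask how loss of *Mtm1* changed the muscle. *Tubb6*, *Tubb2a* and *Tubb2b* were higher in KO muscle, by 5.89-fold, 2.07-fold and 2.12-fold, and the other 7 isotypes did not pass the test. With calls made at 0.01 after Benjamini-Hochberg adjustment over 14740 genes (edgeR quasi-likelihood test), 3 of 10 members were higher and 0 were lower, where 1.91% of all genes tested were higher and 1.69% were lower. The median log2 fold change was 0.60 over the members and 0.02 over all genes tested. KO_TAM against WT_TAM, which shares no library with KO against WT, gave 4 of 9 members higher (*Tubb6*, *Tubb2a*, *Tubb2b* and *Tuba1b*) and 0 lower, where 3.42% of 14563 genes were higher and 3.3% were lower. The medians there were 0.71 and -0.01. The members were chosen with earlier results of these data known, so these counts and medians are a description and no test of the family.

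**Figure D1:**
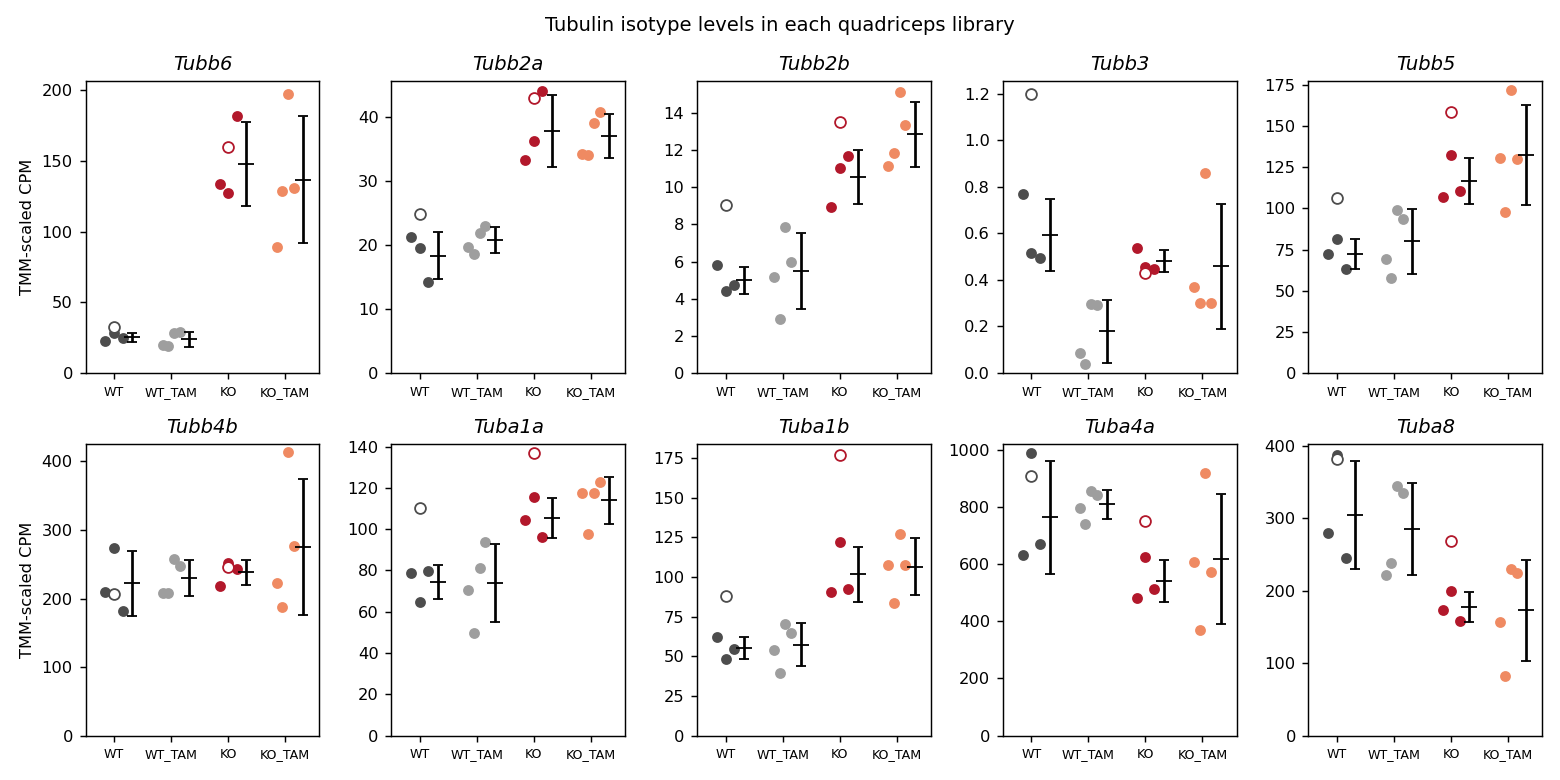
Level of each tubulin isotype in every library, in TMM-scaled CPM on a linear axis from 0, by group; filled points are the 14 libraries tested, open points the library labelled WT replicate 1 and KO replicate 12, and bars the mean ± SD of the filled points. For *Tubb6* every KO and KO_TAM library lies above every WT and WT_TAM library, whereas for *Tubb4b* the groups overlap.

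*Tubb6* (ENSMUSG00000001473, chr18:67390717-67402749, plus strand, GRCm38) encodes a beta isotype known to be scarce in adult muscle and to rise in regenerating fibers. Its level was 22.4, 28.3 and 24.8 CPM in the WT libraries and 19.7, 19.1, 28.0 and 28.7 CPM in the WT_TAM libraries. It was 134, 127 and 182 CPM in the KO libraries and 89.4, 129, 198 and 131 CPM in the KO_TAM libraries. The lowest knockout library (KO_TAM replicate 13) was thus well above the highest wild-type library. The log2 fold change was 2.56 ± 0.17 (SE) in KO against WT (adjusted p = 0.00021) and 2.49 ± 0.23 in KO_TAM against WT_TAM (adjusted p = 0.00015, both edgeR). The library labelled WT replicate 1, with KO-like *Mtm1* counts, had 32.5 CPM of *Tubb6* and sat with the wild types, and KO replicate 12 had 160 CPM. The call was kept under all 19 other settings for KO against WT, among them the addition of both libraries, and under all 18 for KO_TAM against WT_TAM. None of the 50-base stretches of the *Tubb6* transcripts occurred in another gene's transcripts, so its reads are not shared with another isotype at that length.

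*Tubb2a* (chr13:34074274-34078007, minus strand) and *Tubb2b* (chr13:34126748-34130466, minus strand) are neighbouring genes for beta-tubulins of nearly the same protein, *Tubb2b* being known for its role in migrating neurons. *Tubb2a* was at 21.2, 19.5 and 14.2 CPM in WT and at 33.2, 36.2 and 44.1 CPM in KO libraries. It was at 19.7, 18.5, 21.9 and 22.9 CPM in WT_TAM and at 34.2, 33.9, 39.0 and 40.8 CPM in KO_TAM libraries. No knockout library overlapped a wild-type library in either comparison. The log2 fold changes were 1.05 ± 0.18 (SE, adjusted p = 0.0073) and 0.81 ± 0.12 (adjusted p = 0.0012, edgeR).

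*Tubb2b* was lower in level, at 5.82, 4.42 and 4.72 CPM in WT and 8.92, 11.1 and 11.7 CPM in KO libraries. In the treated groups it was at 5.17, 2.92, 7.84 and 5.97 CPM in WT_TAM and 11.2, 11.8, 15.1 and 13.3 CPM in KO_TAM libraries. The groups again did not overlap. The log2 fold changes were 1.08 ± 0.20 (SE, adjusted p = 0.0098) and 1.21 ± 0.25 (adjusted p = 0.0081, edgeR). Of the 50-base stretches of *Tubb2a*, 45.6% also occurred in *Tubb2b*, and 31.3% of those of *Tubb2b* occurred in *Tubb2a*, so how reads were divided between this pair is uncertain. Leaving out any 1 of the 6 libraries ended both calls in KO against WT, with log2 fold changes of 0.91 to 1.17 for *Tubb2a* and 0.99 to 1.21 for *Tubb2b*. The library labelled WT replicate 1 had 24.9 CPM of *Tubb2a* and 9.07 CPM of *Tubb2b*, both above the WT libraries tested, and neither gene passed once it was added.

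*Tubb5*, a broadly expressed isotype (chr17:35833921-35838306, minus strand), was at 72.1, 81.3 and 63.0 CPM in WT and at 107, 133 and 111 CPM in KO libraries, without overlap. Its log2 fold change of 0.70 ± 0.14 (SE) missed the threshold (adjusted p = 0.017, edgeR), as did 0.71 ± 0.20 in KO_TAM against WT_TAM (adjusted p = 0.034), where the ranges overlapped. DESeq2 and the edgeR exact test called it in both comparisons. *Tubb4b*, the most abundant of the beta isotypes and one found in many tissues (chr2:25222160-25224702, minus strand), was at 210, 274 and 182 CPM in WT and at 218, 252 and 244 CPM in KO libraries. Its log2 fold changes were 0.11 ± 0.16 (SE, adjusted p = 0.70) and 0.24 ± 0.21 (adjusted p = 0.47). The groups overlapped on the TMM scale, though not in RPKM, where KO libraries were at 119 to 142 and WT libraries at 83.0 to 111. Of the 50-base stretches of *Tubb4b*, 41.3% occurred in another gene, so its level is uncertain. The largest overlap was with *Tubb4b-ps1* (32.4%), which had 9 to 31 counts in WT and 29 to 50 in KO libraries.

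*Tubb3* (chr8:123411424-123422015, plus strand) was close to the limit of what this depth shows. It had 12 to 21 counts in the WT libraries, 1 to 7 in WT_TAM, 14 to 16 in KO and 9 to 30 in KO_TAM libraries. Its log2 fold change in KO against WT was -0.30 ± 0.45 (SE, adjusted p = 0.69, edgeR), and it did not pass the count filter in KO_TAM against WT_TAM. A set of 8 nerve and Schwann cell markers gave 0 calls in both genotype comparisons, and their summed level was 118 to 283 CPM in WT and 153 to 218 CPM in KO libraries.

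Among the alpha-tubulins, *Tuba1a* (chr15:98949837-98953703, minus strand), known from developing neurons, and *Tuba1b* (chr15:98931425-98934565, minus strand), an isotype of most cell types, had higher levels in the knockout libraries. *Tuba1b* was at 62.1, 48.3 and 54.4 CPM in WT and at 90.5, 122 and 92.7 CPM in KO libraries. It was at 53.8, 39.8, 70.5 and 64.7 CPM in WT_TAM and at 108, 83.9, 127 and 107 CPM in KO_TAM libraries. Neither comparison overlapped. The log2 fold change of *Tuba1b* was 0.89 ± 0.17 (SE) in KO against WT, which narrowly missed the threshold (adjusted p = 0.011), and 0.88 ± 0.18 in KO_TAM against WT_TAM, where it passed (adjusted p = 0.0083, edgeR).

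*Tuba1a* was at 78.6, 64.9 and 79.6 CPM in WT and at 104, 115 and 96.3 CPM in KO libraries, and its log2 fold changes of 0.50 ± 0.14 (SE, adjusted p = 0.048) and 0.60 ± 0.18 (adjusted p = 0.037) did not pass. Its groups did not overlap in either comparison. KO replicate 12 had the highest level of both genes among the 16 libraries (137 CPM of *Tuba1a* and 177 CPM of *Tuba1b*). The library labelled WT replicate 1 had 110 CPM of *Tuba1a*, above KO replicates 9 and 11. It had 87.8 CPM of *Tuba1b*, just below the lowest KO library. Of the 50-base stretches, 75.5% for *Tuba1a* and 75.1% for *Tuba1b* occurred in another gene, so their separate levels are uncertain. The largest overlap was with *Tuba1c* (46.9% and 53.6%), and several other genes came close to it. Of the *Tuba1a* stretches 43.4% occurred in *Tuba1b*, and 40.6% of those of *Tuba1b* occurred in *Tuba1a*. *Tuba1c* itself had 142 to 175 counts in WT and 307 to 432 in KO libraries, with a log2 fold change of 0.99 ± 0.18 (SE, adjusted p = 0.011).

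*Tuba4a* (chr1:75214228-75219865, minus strand), the isotype made without the terminal tyrosine and abundant in muscle, and *Tuba8* (chr6:121210696-121226854, plus strand), which is enriched in heart and skeletal muscle, had lower means in knockout muscle, and neither passed the test. *Tuba4a* was at 631, 991 and 670 CPM in WT and at 483, 626 and 515 CPM in KO libraries. *Tuba8* was at 280, 388 and 246 CPM in WT and at 173, 199.8 and 159 CPM in KO libraries. On the TMM scale both genes were lower in all 3 KO libraries than in any WT library. In RPKM the ranges overlapped, with *Tuba4a* at 149 to 199 in KO and 164 to 226 in WT libraries. *Tuba8* was at 79.2 to 105.8 RPKM in KO and 105.4 to 147 RPKM in WT libraries. The log2 fold change of *Tuba4a* was -0.49 ± 0.19 (SE, adjusted p = 0.13) and that of *Tuba8* was -0.78 ± 0.18 (adjusted p = 0.025, edgeR). Their unadjusted p was 0.033 and 0.0019, where 14.4% of all genes tested were lower at an unadjusted p of at most 0.05. *Tuba8* was called lower by DESeq2, by the edgeR exact test and with no filter on low counts. In KO_TAM against WT_TAM they were -0.41 ± 0.22 (adjusted p = 0.21) and -0.74 ± 0.28 (adjusted p = 0.091), with overlapping ranges.

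KO_TAM replicate 15 alone gave the overlap for *Tuba4a*, at 920 CPM against 370 to 608 CPM in the other KO_TAM libraries and 742 CPM in the lowest WT_TAM library. It was also the highest library for *Tubb4b* (414 CPM), and the 10 isotypes took 0.261% of its counts, against 0.123% to 0.171% in the rest of its group. Of the 50-base stretches of *Tuba4a*, 34.6% lay in *Stk16*, a kinase gene on the opposite strand. *Stk16* had 562 to 827 counts in the 14 libraries, against 12284 to 32086 for *Tuba4a*. *Tuba8* shared 14.5% of its stretches with the opposite-strand gene *Gm15856*, which had 12 to 89 counts.

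In all, 6 members were higher without overlap in KO than in WT on the TMM scale (*Tubb6*, *Tubb2a*, *Tubb2b*, *Tubb5*, *Tuba1a* and *Tuba1b*). On that scale 2 were lower without overlap (*Tuba4a* and *Tuba8*), though both overlapped in RPKM. With 3 libraries against 3, 18.7% of all genes tested were separated upward on the TMM scale and 17% downward, against 6 and 2 of 10 members. With the library labelled WT replicate 1 and KO replicate 12 added, *Tubb6*, *Tubb2a*, *Tubb5* and *Tuba1b* were still separated, whereas *Tubb2b*, *Tuba1a*, *Tuba4a* and *Tuba8* overlapped. For *Tubb5* the gap was narrow, at 106.1 CPM in the library labelled WT replicate 1 and 107.1 CPM in KO replicate 9. The share of all genes separated was not counted with these libraries added, so nothing is concluded from it. In KO_TAM against WT_TAM 5 members were separated upward and 0 downward, where the shares over all genes were 11.8% and 10.6%.

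**Figure D2:**
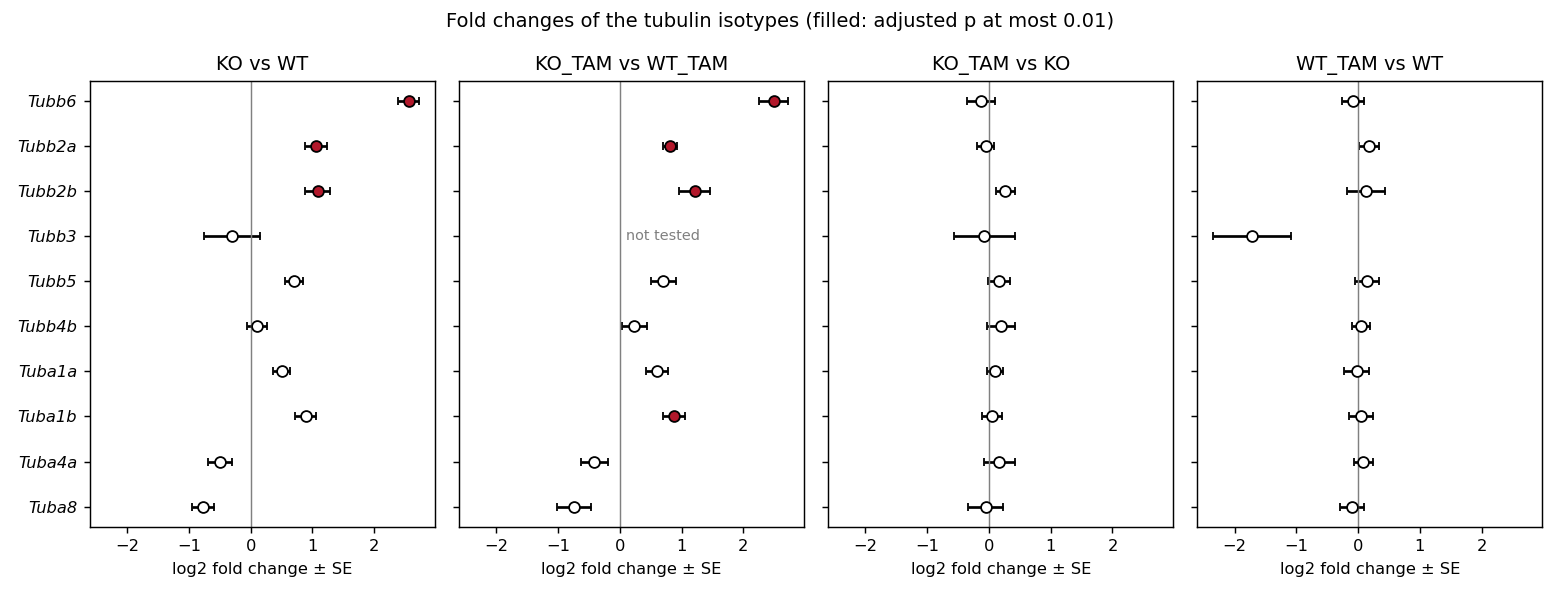
Log2 fold change of each isotype with its SE in 4 comparisons, from the edgeR quasi-likelihood fits; filled points passed an adjusted p of 0.01. In both genotype comparisons *Tubb6* lies above 2.4 on the log2 scale and *Tuba4a* and *Tuba8* below 0. In KO_TAM against KO every isotype lies within 0.3 of 0, as does every isotype but *Tubb3* (-1.72) in WT_TAM against WT.

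The isotype shares give the make-up of the tubulin RNA and do not depend on scaling between libraries. They are described without a test, since the members were chosen with results known. *Tubb6* made up 6.92%, 6.73% and 8.59% of the counts of the 6 beta genes in the WT libraries and 26.7%, 22.8% and 30.7% in the KO libraries. It made up 6.11% to 7.21% in WT_TAM and 18.3% to 27.9% in KO_TAM libraries. *Tubb4b* took a smaller part, with 64.4% ± 2.4 (SD, n = 3) in WT and 43.2% ± 2.0 (n = 3) in KO, and 64.1% ± 2.8 (n = 4) in WT_TAM and 45.6% ± 3.6 (n = 4) in KO_TAM muscle. *Tubb5* held about the same share of the beta genes throughout, 21.1% ± 1.1 in WT, 22.0% ± 2.3 in WT_TAM, 21.2% ± 2.5 in KO and 22.6% ± 2.8 in KO_TAM muscle. Of the counts of all 10 isotypes it held a larger part in knockout muscle, 7.90% ± 0.29 in KO against 4.73% ± 0.46 in WT and 8.38% ± 0.61 in KO_TAM against 4.98% ± 0.65 in WT_TAM. The library labelled WT replicate 1 had 8.57% of *Tubb6* and KO replicate 12 had 25.7%, each within or near the range of its labelled group.

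Of the 4 alpha genes, *Tuba1b* took 4.78% ± 1.38 (SD, n = 3) of counts in WT and 10.9% ± 0.4 (n = 3) in KO muscle, and *Tuba1a* took 6.47% ± 1.84 and 11.4% ± 0.7. *Tuba8* went from 25.3% ± 1.7 to 19.2% ± 1.0, and *Tuba4a* from 63.4% ± 3.2 to 58.5% ± 1.5. The KO_TAM and WT_TAM shares lay close to those of KO and WT, with *Tuba1b* at 10.9% ± 1.7 (n = 4) against 4.62% ± 0.64 (n = 4) and *Tuba8* at 16.8% ± 3.7 against 23.1% ± 2.8. *Tuba1a* and *Tuba1b* together thus took a larger part of the alpha-tubulin RNA in knockout than in wild-type libraries. Measured as RPKM, *Tubb6* made up 9.24% ± 1.29 of the beta genes in WT and 31.9% ± 4.2 in KO muscle. Divided by the 50-base stretches that no other gene holds, it made up 4.44% ± 0.67 and 17.8% ± 2.7. The share of *Tubb6* depends on the length used, and it was higher in KO than in WT muscle under all 3.

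**Figure D3:**
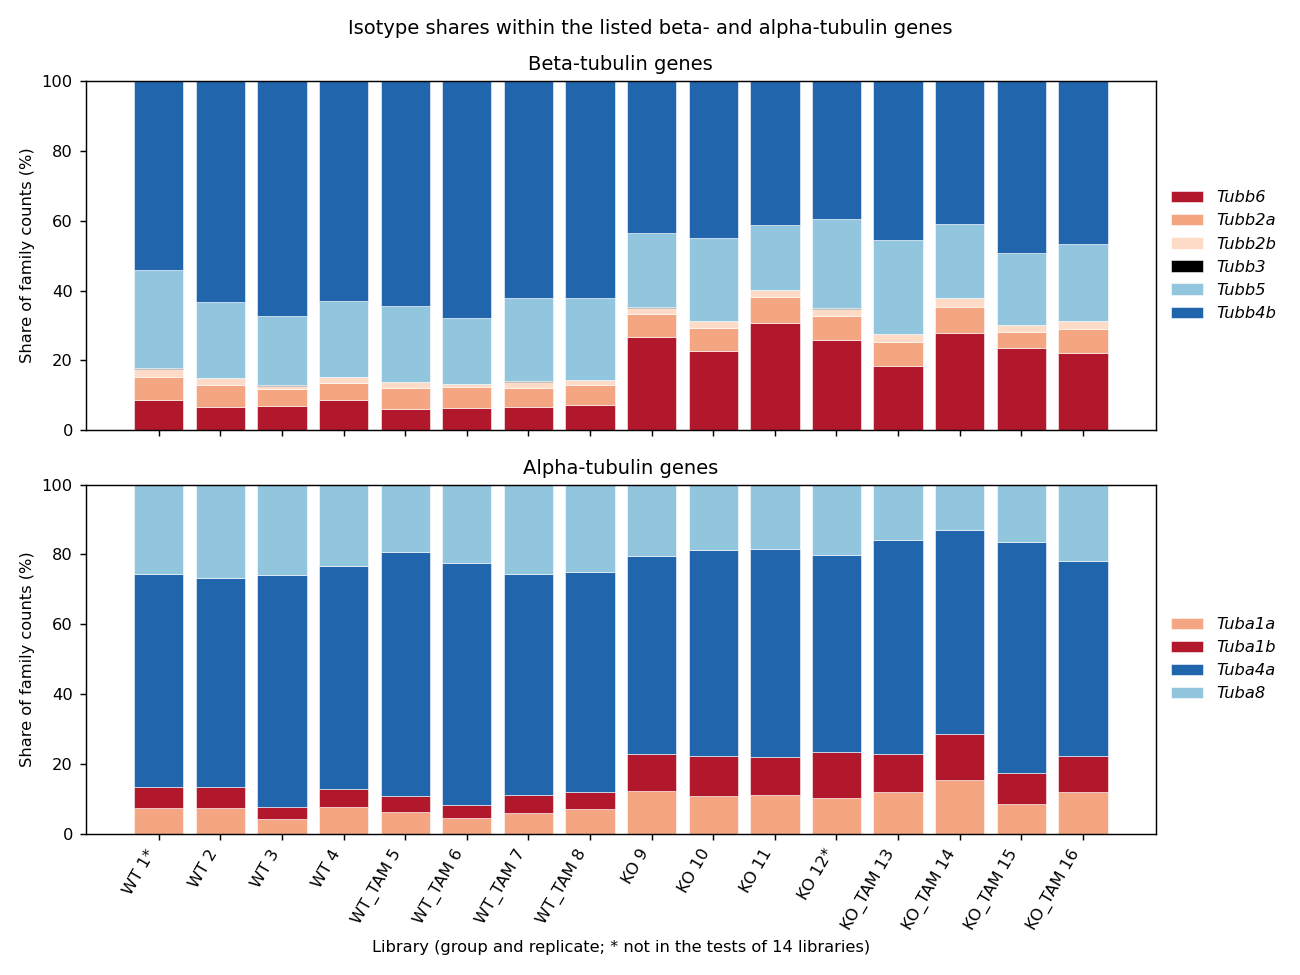
Share of each isotype in the counts of the 6 beta-tubulin genes (upper panel) and of the 4 alpha-tubulin genes (lower panel) in each of the 16 libraries, in percent; the 2 starred libraries are outside the tests. The *Tubb6* share is 6.11% to 8.59% in every library labelled wild type and 18.3% to 30.7% in every library labelled knockout.

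The summed level of the 10 isotypes was 1541 ± 312 CPM (SD, n = 3) in WT, 1586 ± 194 (n = 4) in WT_TAM, 1477 ± 136 (n = 3) in KO and 1606 ± 474 (n = 4) in KO_TAM muscle. These differences were smaller than the spread within groups on the TMM scale. The beta genes together were at 343 ± 60 CPM in WT and 551 ± 46 in KO, and the alpha genes at 1198 ± 255 and 925 ± 119 CPM. The direction of the total depended on scaling, at -0.061 on the log2 scale (KO over WT) by TMM and 0.27 by library size only. The alpha sum was lower in KO under both (-0.37 and -0.043) and changed direction only as summed RPKM (0.047). As summed RPKM, which the authors scaled by total counts, the 10 isotypes were at 525 ± 56 in WT and 694 ± 70 in KO muscle, and the alpha genes at 381 ± 42 and 394 ± 61. The beta sum was higher in KO on both scales (143 ± 16 against 300.2 ± 24.5 RPKM). Scaling by library size alone moved the median over every gene tested, on the log2 scale, from 0.02 to 0.33 in KO against WT and from -0.01 to 0.27 in KO_TAM against WT_TAM. The total and the alpha sum differed by more than that between TMM-scaled CPM and summed RPKM, which also weights each gene by its length.

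Tamoxifen was tested within each genotype. In KO_TAM against KO, 0 of 10 members passed the edgeR quasi-likelihood test, as did 0 of 15062 genes (0%), with 1137 genes (7.55%) and 0 members at an unadjusted p of at most 0.05. DESeq2 and the edgeR exact test called 72 genes each and 0 members. The log2 fold changes of the members ran from -0.13 (*Tubb6*, ± 0.23 SE) to 0.27 (*Tubb2b*, ± 0.16 SE), and the ranges of all 10 overlapped. *Tubb6* averaged 148 ± 30 CPM (SD, n = 3) in KO and 137 ± 45 (n = 4) in KO_TAM libraries.

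In WT_TAM against WT, 0 of 10 members passed, where 0.131% of 14544 genes did. DESeq2 called 214 genes and the edgeR exact test 178, with 0 members each, and at an unadjusted p of at most 0.05 there was 1 member, *Tubb3*, where 10.7% of all genes tested were at that level. *Tubb3* had the largest change of the members, with a log2 fold change of -1.72 ± 0.63 (SE) and an adjusted p of 0.36, on 12 to 21 counts a library in WT and 1 to 7 in WT_TAM. It was lower in every WT_TAM library than in every WT library, a separation seen in 6.05% of all genes tested in that direction. The other 9 members lay between -0.10 and 0.18. The test of whether the tamoxifen effect differed between genotypes gave 0 of 10 members and 0 of 15556 genes (0%), with 664 genes (4.27%) and 0 members at an unadjusted p of at most 0.05 and 12 genes and 0 members called by DESeq2. *Tubb3* had the largest interaction, 1.65 ± 0.81 (SE) on the log2 scale (unadjusted p = 0.059, adjusted p = 1.0, edgeR), and the others lay between -0.22 and 0.15. Both tamoxifen comparisons share their libraries with the genotype comparisons.

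The other genes of the microtubule system were followed by 7 lists of 101 genes, 100 of them in the table. In KO against WT 4 of 93 tested were higher and 1 was lower, where 1.91% and 1.69% of all genes tested were. In KO_TAM against WT_TAM 6 of 91 were higher and 3 were lower, where 3.42% and 3.3% of all genes tested were. The list medians lay between -0.32 and 0.19 on the log2 scale, and those over the genes of all lists were 0.06 and 0.05, near the medians of all genes tested. None of the 6 other tubulins tested, of the 8 genes of the gamma-tubulin ring complex or of the 21 tubulin folding genes passed in either comparison. Folding genes, which code for the chaperonin, prefoldin and the cofactors that build the dimer, had medians of 0.18 and 0.12.

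The tail-modifying enzymes gave 2 higher of 16 tested in both comparisons and 1 lower in the second. *Vash2*, a carboxypeptidase that removes the terminal tyrosine, was at 1.90 to 3.84 CPM in WT and 7.51 to 11.4 CPM in KO libraries, a log2 fold change of 1.70 ± 0.28 (SE, adjusted p = 0.0067, edgeR). With tamoxifen it was at 2.92 to 6.30 CPM in WT_TAM and 11.3 to 13.2 CPM in KO_TAM libraries (1.49 ± 0.21, adjusted p = 0.0012). *Ttll12*, a member of the tyrosine ligase-like family, rose by 1.03 ± 0.14 (adjusted p = 0.0033) and 0.69 ± 0.14 (adjusted p = 0.006). *Ttll7*, which adds glutamates mainly to beta-tubulin, fell by 0.95 ± 0.15 in KO_TAM against WT_TAM (adjusted p = 0.0022) and had a log2 fold change of -1.07 ± 0.23 in KO against WT (adjusted p = 0.019).

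Of the microtubule-associated proteins 2 passed, and both were higher in both comparisons. *Map1a* was at 9.08 to 17.9 CPM in WT and 40.1 to 57.7 CPM in KO libraries, and at 11.4 to 14.6 CPM in WT_TAM and 32.4 to 43.4 CPM in KO_TAM libraries. Its log2 fold changes were 1.997 ± 0.249 (SE, adjusted p = 0.002) and 1.48 ± 0.13 (adjusted p = 7.6e-05, edgeR). *Map1b*, like *Map1a* known for stabilising microtubules in neurons, rose by 1.40 ± 0.24 (adjusted p = 0.0083) and 0.86 ± 0.18 (adjusted p = 0.0082).

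Of the motors, *Kif1c*, a kinesin that carries cargo toward microtubule plus ends, was at 753 to 895 CPM in WT and 396 to 486 CPM in KO libraries. It fell by 0.89 ± 0.14 on the log2 scale (SE, adjusted p = 0.0054) and by 0.84 ± 0.13 in KO_TAM against WT_TAM (adjusted p = 0.0016, edgeR). The conventional kinesin heavy chains *Kif5b* and *Kif5c* passed in KO_TAM against WT_TAM, with log2 fold changes of 0.72 ± 0.10 (adjusted p = 0.00087) and 1.18 ± 0.19 (adjusted p = 0.0026). In KO against WT they had 0.62 ± 0.17 (adjusted p = 0.042) and 1.05 ± 0.31 (adjusted p = 0.056). *Spast*, a severing enzyme, fell by 0.52 ± 0.11 in KO_TAM against WT_TAM (adjusted p = 0.0084) and had -0.65 ± 0.16 in KO against WT (adjusted p = 0.031). None of these genes was called for tamoxifen in either genotype.

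**Figure D4:**
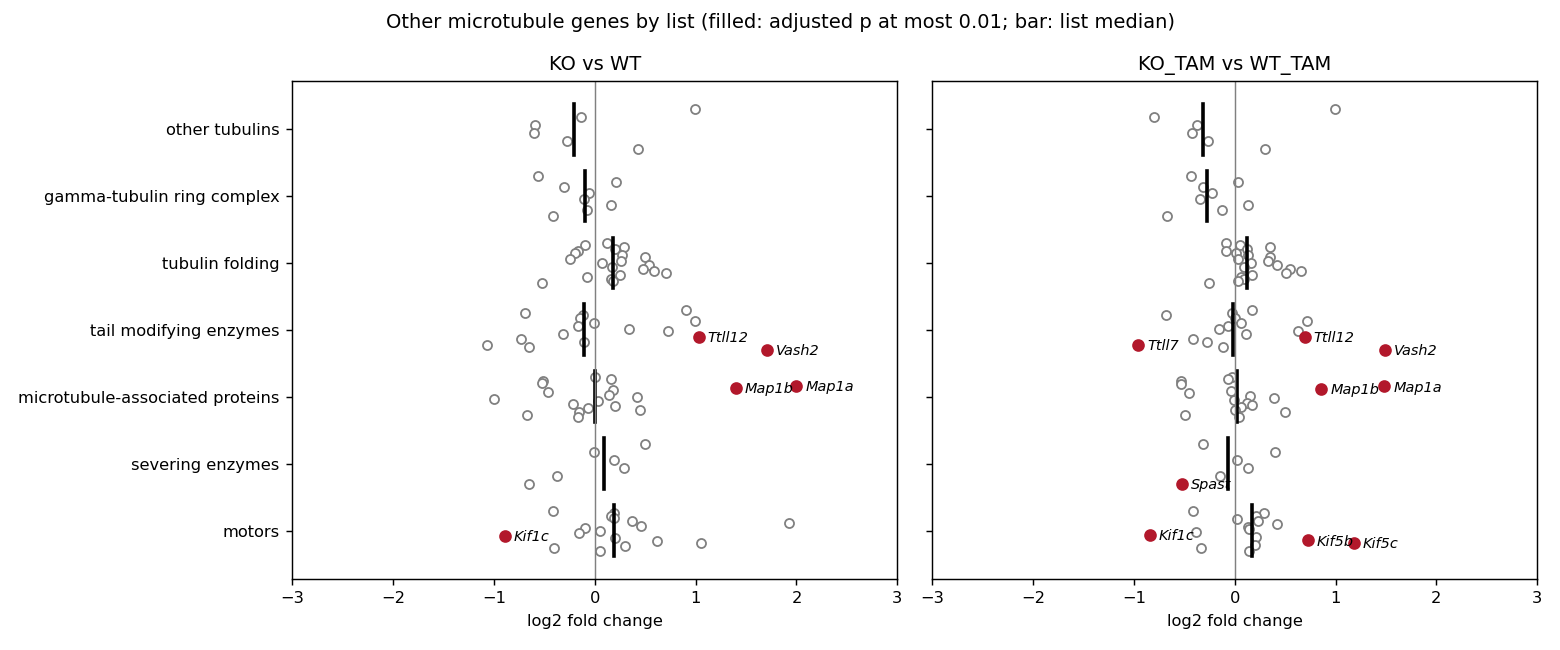
Log2 fold change of every tested gene of the 7 microtubule lists in KO against WT (left) and KO_TAM against WT_TAM (right), 1 point a gene; filled and named points passed an adjusted p of 0.01 and black bars are list medians. The points called are 5 of 93 on the left and 9 of 91 on the right, and the list medians stay within 0.32 of 0.

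Of 7 genes listed for immature or regenerating fibers 6 were higher in both genotype comparisons (*Myh3*, *Myh8*, *Myog*, *Ncam1*, *Chrna1* and *Chrng*), where 1.91% and 3.42% of all genes tested were. Their summed level was 82.0 to 95.9 CPM in WT, 81.5 to 121 in WT_TAM, 310 to 428 in KO and 282 to 412 in KO_TAM libraries. It was 86.2 CPM in the library labelled WT replicate 1 and 614 CPM in KO replicate 12. The 7 mature fiber markers summed to 125825 to 170010 CPM in WT and 76163 to 89748 in KO libraries, with 0 called in KO against WT. In KO_TAM against WT_TAM 2 of these 7 markers were lower (*Ckm* and *Myh4*), where 3.3% of all genes tested were. The means of the 7 mature fiber markers lay in both directions. *Acta1*, *Ckm*, *Myh4* and *Tnnt3* had lower means in KO than in WT muscle and make up most of the sum, whereas *Myh1* (2971 ± 1663 CPM in WT and 5874 ± 1650 in KO, SD, n = 3), *Myh2* and *Mb* had higher means. The lists for macrophages, fibroblasts, endothelial cells, smooth muscle, fat cells, red blood cells and cycling cells gave 0 calls in both comparisons. Among them 2 lists had sums without overlap between the WT and KO libraries tested, where 18.7% of single genes were separated upward and 17% downward. Macrophage markers summed to 92.1 to 111 CPM in WT and 136 to 168 CPM in KO libraries, and smooth muscle markers to 274 to 284 CPM in WT and 193 to 219 CPM in KO libraries. In the treated groups macrophage sums were 46.7 to 121 CPM in WT_TAM and 127 to 216 CPM in KO_TAM libraries, without overlap. There 11.8% of single genes were separated upward. Smooth muscle sums overlapped there, at 230 to 266 CPM in WT_TAM and 189 to 254 CPM in KO_TAM libraries. KO replicate 12 had 108 CPM of macrophage markers, within the WT range, and the library labelled WT replicate 1 had 66.7 CPM. Smooth muscle markers summed to 219 CPM in KO replicate 12 and 331 CPM in the library labelled WT replicate 1. The part of these cell and fiber states in the tubulin values was not tested.

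By Pearson correlation of log2 CPM over the 14 libraries, the genes whose pattern was most like that of *Tubb6*, among 11854 compared, were *Runx1* (r = 0.99), *Nes* (0.99), *Atp6ap2* (0.98), *Raph1* (0.98) and *Ahnak2* (0.98). *Runx1* is a transcription factor, and *Nes* encodes the intermediate filament protein nestin. The points share the genotype groups, which set most of these values. Within the 7 wild-type libraries r was 0.88 for *Runx1*, 0.96 for *Nes*, 0.75 for *Atp6ap2*, 0.63 for *Raph1* and -0.06 for *Ahnak2*. Within the 7 knockout libraries r was 0.84, 0.72, 0.93, 0.67 and 0.70 in the same order. Among the other isotypes, r with *Tubb6* within the wild-type libraries ran from 0.24 (*Tubb2a*) to 0.88 (*Tuba8*), and within the knockout libraries from -0.27 (*Tuba1a*) to 0.64 (*Tubb2a*).

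Promoters were found in the RefSeq table (GRCm38.p6) for 8 of the 10 isotypes. A pair is shown for contrast, *Tubb2a*, which was called in both genotype comparisons, and *Tubb4b*, which was called in neither. Each run holds the 250 bases before and the 50 bases from the start site, 5′ to 3′ on the gene's strand. Capitals mark matches to the CCAAT box, to the GC box (GGGCGG) and to the TATA box (TATAAA) found on either strand, with no overlaps between them.
Tubb2a (chr13:34077959-34078258, minus strand): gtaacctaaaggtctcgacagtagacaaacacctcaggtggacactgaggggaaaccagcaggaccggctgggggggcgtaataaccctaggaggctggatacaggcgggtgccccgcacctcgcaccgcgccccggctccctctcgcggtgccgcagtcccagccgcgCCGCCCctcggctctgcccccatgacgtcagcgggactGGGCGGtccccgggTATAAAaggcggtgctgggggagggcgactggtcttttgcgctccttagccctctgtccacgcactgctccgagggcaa
Tubb4b (chr2:25224653-25224952, minus strand): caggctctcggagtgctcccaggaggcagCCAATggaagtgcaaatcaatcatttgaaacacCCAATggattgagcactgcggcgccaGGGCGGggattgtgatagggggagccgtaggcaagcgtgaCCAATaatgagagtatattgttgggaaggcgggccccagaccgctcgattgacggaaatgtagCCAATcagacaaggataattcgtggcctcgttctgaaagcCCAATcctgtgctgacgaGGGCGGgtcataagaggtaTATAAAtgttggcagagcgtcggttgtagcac
The *Tubb4b* window held 5 matches to CCAAT and the *Tubb2a* window 0, while *Tubb5* had 2 and *Tubb3* and *Tuba1a* had 1 each. Over 32851 promoters of this length 37.4% held the CCAAT box, 35.7% held the GC box and 13.6% held the TATA box. *Tubb2a* and *Tubb4b* both had 2 GC box matches and 1 TATA box match, at position -29 from the start site in *Tubb2a* and inside the transcript in *Tubb4b*. A match is a run of letters and not a shown binding site.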

How the data were processed

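RNA from mouse quadriceps was made into libraries with the Illumina TruSeq RNA kit. The authors aligned reads to GRCm38 with STAR in 2 passes and counted them per gene with HTSeq (the submitters' notes name bcl2fastq 2.17, STAR 2.5.0c and Cufflinks 2.2.1). No source used here gives the annotation release or the strand setting. The authors deposited raw counts per gene and a table of RPKM values, which they scaled by total count.

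The members and the gene lists were chosen with earlier results of these data known. The named genes are all 10 members, *Mtm1* as the check of labels, each gene of the microtubule lists called in a genotype comparison, and the 5 genes with the highest Pearson r to *Tubb6* with a mean count of at least 50. From the deposited counts, edgeR 4.0.16 (R 4.3.3) filtered genes by expression (minimum count 10, minimum total 15), scaled by TMM and ran the quasi-likelihood test on the 2 groups compared, on 14 libraries as the study did, with Benjamini-Hochberg adjustment and a threshold of 0.01. The interaction was fitted on all 4 groups. CPM values use TMM factors over 16 libraries. Alternatives were DESeq2 1.42.0, the edgeR exact test, other scaling, no filter, limma 3.58.1 on log2(RPKM + 0.1) and log2(RPKM + 1), 1 fit of all groups, 16 libraries and leaving out each library. Fits were also run on simulated data whose planted changes were larger than those of every member but *Tubb6*, which says little about smaller changes. Shares of isotype counts carry no test. Among 120 library pairs, 0 were identical. The study's supplement says that the mice were littermates, but which libraries shared a litter is not given in the sources used here, so litter entered no fit and p-values measure the spread between these libraries. Shared sequence was counted as 50-base stretches of GENCODE vM21 transcripts found in another gene. Protein sequences were not used here, and the sequences of *Tubb6* and 1 other coding end are not reported here. Counting alone limits precision at low counts, as for *Tubb3*.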

Additional observations from a re-analysis of the deposited data

Results flagged for a closer look

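Of 46 sets of 4 values looked at (levels and family shares of the 10 isotypes and their sums in WT_TAM and KO_TAM muscle), 1 had a library far from the others. KO_TAM replicate 15 had 0.860 CPM of *Tubb3* (30 counts), and its gap to the next library was 0.881 of the range of the group, above Dixon's 95% critical value for 4 values. Chance marks about 1 in 20 such groups. The WT and KO groups, with 3 libraries each, were not examined in this way.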

How the results depend on the processing

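Of the members, *Tubb6* kept its call in both genotype comparisons under every alternative run, and *Tubb2a* kept it in KO_TAM against WT_TAM. For KO against WT the 3 members called (3.6% of all genes) became 7 at an adjusted p of 0.05 (12.8% of all genes), 6 with DESeq2 (11.4%), 6 with the edgeR exact test (9.85%), 6 with no filter (4.83%), 5 with library size only (7.89%), and 5 with limma on log2(RPKM + 0.1) (5.59%) and log2(RPKM + 1) (5.13%). They became 1 (*Tubb6*) with 16 libraries (1.44%) and 1 with the library labelled WT replicate 1 added (0.806%), an alternative chosen after seeing the data, and leaving out each library gave 1 to 1 (1.21% to 2.4%). RLE, upper quartile, 1 fit of all groups and KO replicate 12 added (also chosen after seeing the data) gave 2 (2.33% to 6.34%). For KO_TAM against WT_TAM the 4 (6.72% of all genes) became 2 to 4 on leaving out each library (2.88% to 6.2%), with 2 without WT_TAM replicate 5 or 8 or KO_TAM replicate 13, 15 or 16 and 3 without WT_TAM replicate 6 or KO_TAM replicate 14, and 4 to 6 under the settings that kept every library (5.43% to 17%). Leaving out libraries, like DESeq2 and the other settings, gave 0 members for tamoxifen in either genotype and for the interaction.

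Values near 0 changed sign. *Tubb3* in KO against WT was 0.019 and 0.0016 with limma on log2(RPKM + 0.1) and log2(RPKM + 1). *Tubb4b* was -0.010 in KO against WT without WT replicate 4 (highest 0.27) and -0.012 in KO_TAM against WT_TAM without KO_TAM replicate 15 (highest 0.38). The cause was not tested. The *Tubb6* share rose by 8.43 percentage points of the 10 genes in KO (7.22 to 9.55 leaving out each library), 11.4 in RPKM, 19.3 within its family and 4.52 per unshared stretch (chosen after seeing the data). With tamoxifen in both genotypes the differences were 7.20 (6.17 to 8.08), 9.80, 16.4 and 3.78. The share of *Tubb4b* rose by 1.74 points of the 10 genes and fell by 21.2 points within its family, since the denominators differ. Of the 10 genes it also depended on the length used, with a difference of 0.34 points in RPKM and -0.64 per unshared stretch. In KO_TAM against WT_TAM the *Tubb4b* differences of the 10 genes were 2.47 in counts, 1.15 in RPKM and -0.21 per unshared stretch. The summed level in KO over WT was -0.061 on the log2 scale, 0.27 by library size only and 0.40 in RPKM. No paired analysis was possible because the groups share no replicate numbers and no source used here gives the litter of each library.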
